A study of Rattus norvegicus with 16 samples.

Results

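Arntl, Npas2 and Clock encode the activators of the circadian clock, and RNA-seq gave their transcript levels in 2 tissues, aorta and kidney, of adult rats. The 3 genes were taken by identifier (ENSRNOG00000014448 for Arntl, ENSRNOG00000013408 for Npas2 and ENSRNOG00000002175 for Clock) from the 23918 identifiers counted in both tissues. All 3 had counts in every library. Male wild type Sprague-Dawley rats breathed room air (RA, normoxia) throughout, or 85% oxygen between postnatal days 1 and 14 followed by RA (hyperoxia), and were studied at 1 year of age. For each tissue, 4 RA and 4 hyperoxia-exposed animals were sequenced, 16 libraries in all. The RNA of the vessel came from the arch and the thoracic aorta as whole tissue. The hyperoxia group holds only animals that lived to 1 year. The sources do not give the hour of tissue collection, and its part in the values was not tested. Names of other genes were not used, so the tissue labels were not checked against marker genes.

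The protein of Arntl, also named Bmal1, forms a pair with that of Clock or of Npas2, a close relative of Clock. The pair binds E-box sequences and switches on the period, cryptochrome and REV-ERB genes, whose proteins then hold the activators back. REV-ERB and ROR proteins compete for ROR elements in the promoter of Arntl, and its transcript rises and falls over the day. In most tissues the transcript of Clock varies less over the day than that of Arntl. The vessel wall and the kidney both hold such clocks.

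Promoter windows are printed to show which of these elements lie just upstream of each gene. They are the 250 bases before the annotated start in RefSeq (build GRCr8), which is not the build to which the reads were assigned, and all 3 genes were matched by symbol or synonym. Capitals mark matches to the letters TAGGTNA, the core of a ROR element, and other letters searched are named below the windows. The first of 2 annotated starts of Clock was used. The Arntl window lies at chr1:176766078-176766327, the Npas2 window at chr9:48959315-48959564 and the Clock window at chr14:32262500-32262749, all on the plus strand.
Arntl: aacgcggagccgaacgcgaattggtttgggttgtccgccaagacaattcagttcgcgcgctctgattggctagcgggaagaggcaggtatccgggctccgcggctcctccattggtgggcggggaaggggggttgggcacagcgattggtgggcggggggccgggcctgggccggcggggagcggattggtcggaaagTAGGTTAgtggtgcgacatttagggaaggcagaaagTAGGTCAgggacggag
Npas2: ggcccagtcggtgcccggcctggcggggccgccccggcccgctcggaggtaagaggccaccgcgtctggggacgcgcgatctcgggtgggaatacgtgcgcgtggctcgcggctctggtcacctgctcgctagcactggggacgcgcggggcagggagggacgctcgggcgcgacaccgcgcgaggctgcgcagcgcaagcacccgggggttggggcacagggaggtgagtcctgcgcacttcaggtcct
Clock: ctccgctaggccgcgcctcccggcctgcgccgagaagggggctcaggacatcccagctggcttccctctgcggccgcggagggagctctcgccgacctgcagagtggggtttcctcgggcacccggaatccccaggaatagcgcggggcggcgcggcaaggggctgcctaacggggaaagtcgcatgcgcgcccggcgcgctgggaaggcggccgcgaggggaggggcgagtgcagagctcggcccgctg

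The Arntl window held the ROR element at 2 places, from −52 to −46 and from −16 to −10 counted from the start site. The second of these contains the ROR half-site AGGTCA. Searched on both strands, the element TAGGTNA occurred in 7.55% of 33469 such windows and at 2 or more places in 0.397% of them, and its letters were chosen with the Arntl window in view. The half-site occurred in 14.1% of the windows. The E-box CACGTG (5.59% of windows) and the D-box TTATGTAA (0.828% of windows) were not in any of the 3 windows printed, nor were the ROR element and half-site in those of Npas2 and Clock.

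The libraries held 33611558 to 47021630 counts in the RA aorta, 68643331 to 83929128 in the hyperoxia aorta, 25527267 to 25868414 in the RA kidney and 25031947 to 26521895 in the hyperoxia kidney. Every hyperoxia aorta library was thus deeper than every RA aorta library. The 10 most abundant genes took 12.3% to 39.6% of the counts of an aorta library, the highest share being that of RA replicate 2. Levels are given as counts per 1000000 of the library (CPM), scaled between the libraries of a tissue by TMM normalization, and as mean ± SD. The genes were selected on their measured difference between hyperoxia and RA within each tissue, so the values of that contrast are a description and carry no test.

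In the aorta, Arntl stood about 9-fold and Npas2 about 5-fold higher in the hyperoxia group. Clock stood about 1.25-fold higher there, with overlapping groups. Arntl measured 5.12, 2.67, 3.04 and 3.05 CPM in RA replicates 1 to 4 and 39.99, 25.07, 39.4 and 25.1 CPM in hyperoxia replicates 1 to 4. The lowest hyperoxia aorta was thus far above the highest RA aorta, and within the hyperoxia group replicates 1 and 3 were high and 2 and 4 low. The RA mean was 3.47 ± 1.11 CPM and the hyperoxia mean 32.4 ± 8.43 CPM (SD, n = 4 each), a fold change of 9.32 (log2 fold change 3.22, standard error 0.27).

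Npas2 measured 15.8, 12.2, 15.7 and 22.1 CPM in RA and 77.6, 82.2, 84.03 and 63.8 CPM in hyperoxia, again by replicate 1 to 4. The groups did not overlap, and the hyperoxia aortas lay within a narrow range of each other. The means were 16.5 ± 4.11 CPM and 76.9 ± 9.14 CPM (SD, n = 4 each), a fold change of 4.67 (log2 fold change 2.22, standard error 0.19).

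Clock, whose protein pairs with that of Arntl, measured 54.9, 38.7, 54.8 and 57.2 CPM in RA and 71.2, 52.3, 61.5 and 72.8 CPM in hyperoxia. The groups overlapped, since hyperoxia replicate 2 lay below 3 of the 4 RA aortas. The means were 51.4 ± 8.52 CPM and 64.4 ± 9.52 CPM (SD, n = 4 each), and the log2 fold change was 0.33 (standard error 0.16). Without RA replicate 2, the library lowest in Clock, the log2 fold change was 0.21. Every Clock count was fractional, whereas those of Arntl and Npas2 were whole numbers in all 16 libraries. With this kind of counting, a gene has a fractional count where reads fit transcripts of more than 1 gene. The Clock values thus carry an uncertainty of assignment, and its size was not measured.

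**Figure D1:**
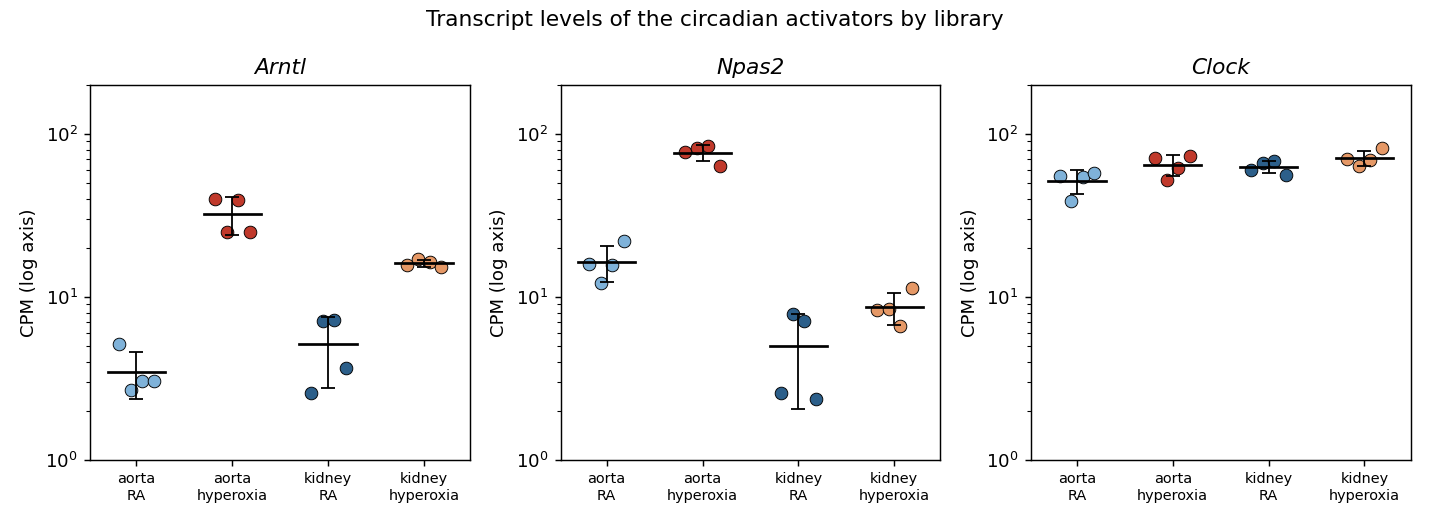
CPM of Arntl, Npas2 and Clock in each library (points, replicates 1 to 4 from left to right), with the mean (line) and SD (bar) of each group of 4, on log axes and scaled within each tissue. Arntl in hyperoxia sits at 25.07 to 39.99 CPM in the aorta and 15.2 to 17.0 CPM in the kidney, above all RA libraries of the same tissue, and the Clock points of the groups overlap.

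In the kidney, Arntl stood about 3-fold higher in the hyperoxia group, and the groups of Npas2 and Clock overlapped. Arntl measured 2.58, 7.13, 7.25 and 3.66 CPM in RA replicates 1 to 4 and 15.6, 17.0, 16.4 and 15.2 CPM in hyperoxia replicates 1 to 4. The hyperoxia kidneys lay close together, and the RA kidneys split into a pair near 7 CPM and a pair lower. The means were 5.16 ± 2.39 CPM and 16.04 ± 0.83 CPM (SD, n = 4 each), a fold change of 3.11 (log2 fold change 1.64, standard error 0.31).

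Npas2 measured 2.58, 7.87, 7.09 and 2.35 CPM in the RA kidneys and 8.296, 8.40, 6.66 and 11.3 CPM in the hyperoxia kidneys. RA replicates 2 and 3 were the higher ones, as for Arntl, and both lay above hyperoxia replicate 3. The means were 4.97 ± 2.91 CPM and 8.65 ± 1.91 CPM (SD, n = 4 each), and the log2 fold change was 0.80 (standard error 0.41).

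Clock measured 59.99, 66.7, 68.1 and 56.4 CPM in the RA kidneys and 70.5, 64.02, 69.2 and 82.0 CPM in the hyperoxia kidneys. Here too RA replicates 2 and 3 were the higher pair of their group, and hyperoxia replicate 2 lay below both. The means were 62.8 ± 5.55 CPM and 71.5 ± 7.58 CPM (SD, n = 4 each), and the log2 fold change was 0.19 (standard error 0.10). Without hyperoxia replicate 4, the highest library, the log2 fold change was 0.11. The authors left 1 hyperoxia kidney out of their own analysis without naming it. Leaving out each hyperoxia or RA kidney in turn kept the log2 fold change of Arntl between 1.42 and 1.85.

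Of the 3 genes, 2 were higher in every hyperoxia aorta than in every RA aorta, as were 2.1% of the 15086 genes tested there. In the kidney 1 of the 3 was, as were 1.67% of 15069 genes. Arntl alone of the 3 was so in both tissues, as were 9 genes, or 0.0643%, of the 13996 genes tested in both. By size of log2 fold change, counted from the highest, Arntl was number 7 and Npas2 number 29 in the aorta, and they were number 32 and number 253 in the kidney. Clock was number 2131 in the aorta and number 2574 in the kidney. As the genes were chosen for this contrast, nothing is read from these counts and ranks.

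**Figure D2:**
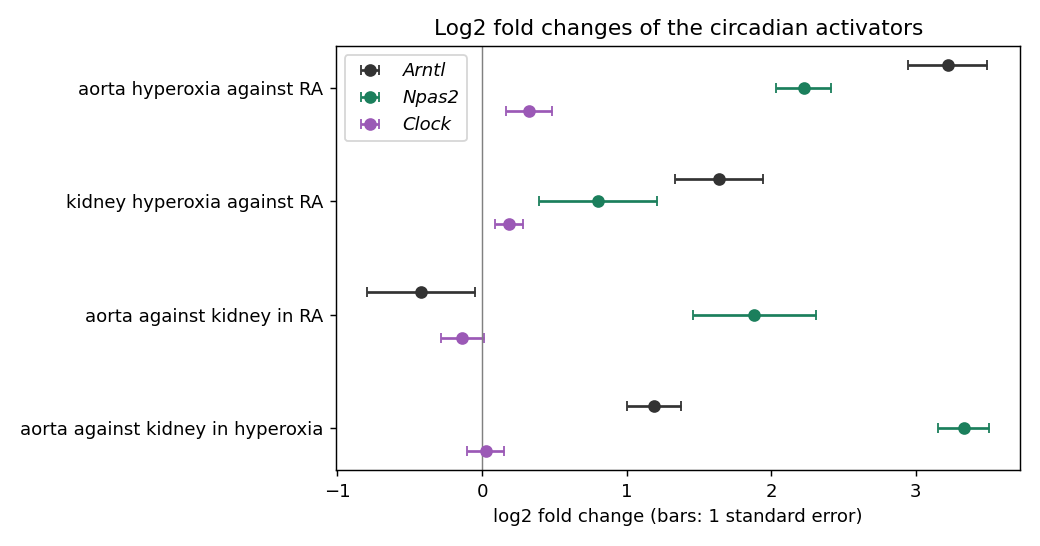
Log2 fold changes of Arntl, Npas2 and Clock from edgeR in the 4 contrasts, with bars of 1 standard error. Arntl and Npas2 lie to the right of 0 for hyperoxia against RA, at 3.22 and 2.22 in the aorta and 1.64 and 0.80 in the kidney, and all Clock values lie between −0.13 and 0.33.

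With all 16 libraries in a single fit, the log2 fold change of Arntl was larger in the aorta than in the kidney by 1.62 (standard error 0.42), that of Npas2 by 1.46 (standard error 0.46) and that of Clock by 0.18 (standard error 0.20). These differences come from the contrast on which the genes were chosen and were not tested. Aorta replicates 2, 3 and 4 and kidney replicates 1, 2 and 3 of the hyperoxia group carry the same 3 library numbers, and whether they come from the same animals is not stated. In that order, the aortas held 25.07, 39.4 and 25.1 CPM of Arntl and the kidneys 15.6, 17.0 and 16.4 CPM. The middle number was thus the highest of the 3 in either tissue, by a small margin in the kidney.

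The ratio of 2 counts within a library needs no scaling between libraries, and can be compared from library to library. Npas2 can take the place of Clock as the partner of Arntl. The count of Clock was 10.7 to 18.8 times that of Arntl in the RA aortas and 1.56 to 2.90 times in the hyperoxia aortas. In the kidney it was 9.36 to 23.2 times in RA and 3.77 to 5.41 times in hyperoxia, so that neither tissue had overlapping groups. The Clock to Npas2 ratio went from 2.59 to 3.50 in the RA aortas to 0.636 to 1.14 in the hyperoxia aortas, again apart. In the kidney that ratio overlapped, at 8.48 to 24.04 in RA and 7.28 to 10.4 in hyperoxia. The ratios include the differences between hyperoxia and RA on which the genes were chosen, and are a description.

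The Npas2 to Arntl ratio overlapped in both tissues. It was 5.02 ± 1.72 in RA and 2.47 ± 0.593 in hyperoxia in the aorta, and 0.930 ± 0.201 and 0.544 ± 0.143 in the kidney (SD, n = 4 each). It was higher in every aorta than in every kidney, whatever the exposure. The ratios are of counts and not per transcript length, so they compare libraries and not the amounts of 2 transcripts.

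**Figure D3:**
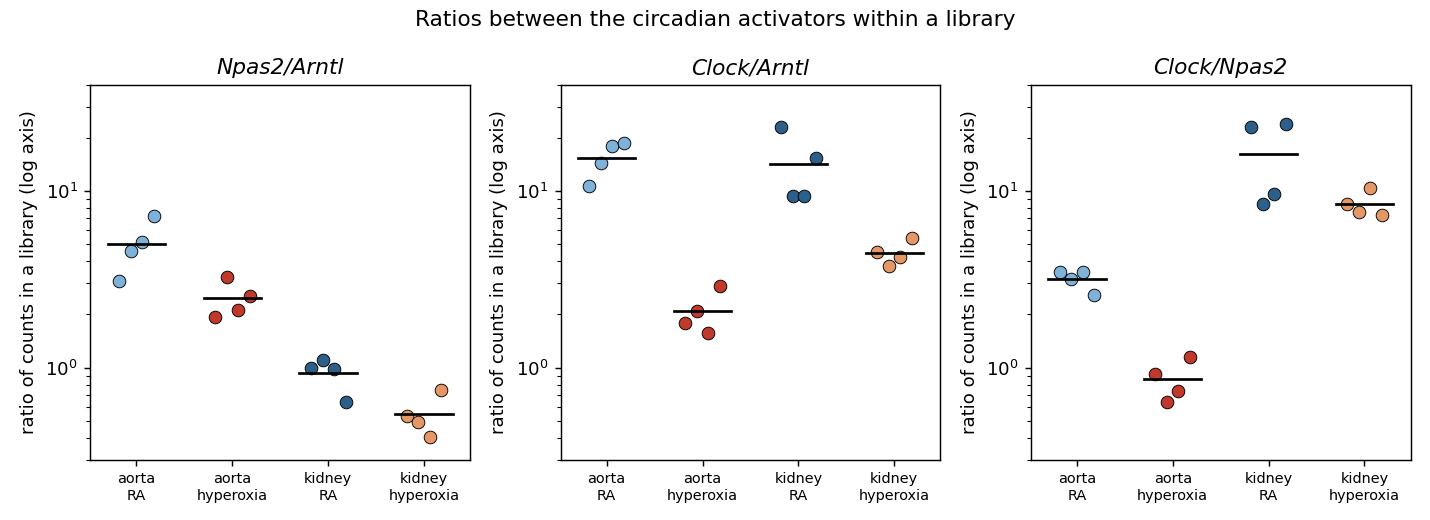
Ratios of counts within each library for Npas2/Arntl, Clock/Arntl and Clock/Npas2 (points, with the mean of each group of 4 as a line), on log axes. The Clock/Arntl points fall from 10.7 to 18.8 in the RA aortas to 1.56 to 2.90 in the hyperoxia aortas, while the Npas2/Arntl groups overlap within each tissue.

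Aorta and kidney were compared within each exposure to ask where each activator is expressed. The choice of the genes did not use the contrast between tissues in RA, so p-values are given for that contrast alone. The RA values did enter the differences that chose the genes, so these p-values are not independent of the choice. Values in hyperoxia are a description. The libraries of the tissues differ in depth, and tissue and library preparation cannot be told apart. Scaled over all 16 libraries, the order of Npas2 was hyperoxia aorta (82.9 ± 10.6 CPM), RA aorta (17.2 ± 4.66), hyperoxia kidney (8.17 ± 1.76) and RA kidney (4.69 ± 2.75), with SD and n = 4 for each. The neighbours in this order were apart except for the kidney groups, which overlapped. With edgeR's quasi-likelihood test and Benjamini-Hochberg adjustment over all genes, Npas2 was higher in the aorta in RA (log2 fold change 1.88, standard error 0.42, adjusted p = 0.00354). A call in this direction was common, with 34.3% of genes called higher in the aorta in RA. In hyperoxia the log2 fold change was 3.33 (standard error 0.18), which includes the difference on which the gene was chosen.

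For Arntl the order was hyperoxia aorta (34.9 ± 9.17 CPM), hyperoxia kidney (15.2 ± 0.844), RA kidney (4.86 ± 2.26) and RA aorta (3.62 ± 1.14), with SD and n = 4 for each, and the RA groups overlapped. In RA, the log2 fold change of aorta against kidney was −0.42 (standard error 0.37, adjusted p = 0.346 from edgeR), and it ranged from −0.66 without RA aorta replicate 1 to −0.20 without RA kidney replicate 3. In hyperoxia the log2 fold change was 1.19 (standard error 0.18), which includes the differences on which the gene was chosen.

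Clock lay between 53.7 ± 9.82 CPM in the RA aorta and 69.3 ± 9.61 CPM in the hyperoxia aorta, with the RA kidney at 59.2 ± 5.27 and the hyperoxia kidney at 67.5 ± 6.92 (SD, n = 4 each). All neighbours overlapped. The log2 fold change of aorta against kidney was −0.13 in RA (standard error 0.15, adjusted p = 0.435 from edgeR) and 0.03 in hyperoxia (standard error 0.13). The first came to −0.0009 without RA aorta replicate 2, and the second fell below 0 without hyperoxia aorta replicate 1 or 4, without hyperoxia kidney replicate 2, or with scaling by library totals only.

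Animals within a group also differed in the activators, and the same libraries were used in choosing the genes. After the mean of each group was removed, Arntl and Npas2 had a Pearson r of 0.70 over the 16 libraries, 0.86 over the 8 kidneys and 0.28 over the 8 aortas. In the RA kidney, replicates 2 and 3 lay above replicates 1 and 4 for both genes. The hyperoxia kidneys did not share an order in this way. There, replicate 4 was the highest in Npas2 and, with TMM scaling, the lowest in Arntl, while replicate 2 was the highest in Arntl. The lowest place in Arntl is uncertain, since replicates 1 and 4 had the same count of 374. By library totals replicate 1 was lower, at 14.5 CPM against 14.9 CPM in replicate 4. The r over the 8 kidneys thus does not show that the genes varied together in both groups, and r was not computed for each kidney group alone. Arntl and Clock had an r of 0.40 over the 16 libraries, and Npas2 and Clock 0.49. The libraries share scaling factors, and these values are given as a description.

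**Figure D4:**
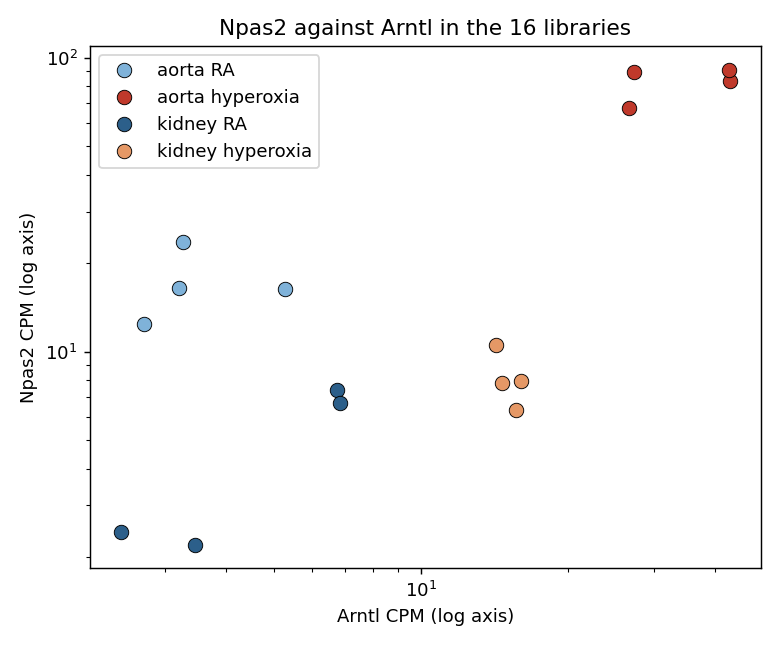
Npas2 against Arntl in CPM for each of the 16 libraries, scaled over all of them, on log axes and coloured by group. The hyperoxia aortas lie apart at the top right, at 67.8 to 91.2 CPM of Npas2, and the RA kidneys lie as 2 pairs along the diagonal at the bottom left.

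Over the 16 libraries, with the mean of each tissue removed from log2 CPM, Npas2 had the level most like that of Arntl among 13995 other genes (r = 0.94). Clock was number 85 (r = 0.71). This measure includes the difference between hyperoxia and RA on which the genes were chosen. By Spearman's rho Npas2 was number 2. With group means removed it was number 6 over the 16 libraries, number 23 in the kidney alone and number 3601 in the aorta alone. The unnamed genes most like Arntl after Npas2 were ENSRNOG00000010116 (r = 0.88) and ENSRNOG00000025596 (r = 0.87). The most opposite were ENSRNOG00000018413 (r = −0.96) and ENSRNOG00000021027 (r = −0.94). The gene ENSRNOG00000018413 stood at 37.7 to 65.8 CPM in the RA aortas and 8.37 to 19.5 CPM in the hyperoxia aortas. In the kidney, ENSRNOG00000018413 stood at 33.6 to 46.8 CPM in RA and 17.8 to 27.3 CPM in hyperoxia. The gene was chosen as opposite to Arntl over the same libraries, and these values are a description.

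The counts behind the lowest levels were small. Arntl had 68 counts in RA kidney replicate 1 (95% Poisson interval 52.8 to 86.2) and Npas2 had 64 counts in RA kidney replicate 4. The highest were 2792 counts for Arntl and 7956 for Npas2, both in hyperoxia aortas. In whole tissue, a change in the share of a cell type and a change in transcript per cell cannot be told apart.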

How the data were processed

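RNA-seq measured polyA-selected RNA of 16 libraries, 4 for each tissue and exposure, as grouped by the sample titles. The authors used kallisto with rat build rn6.0 and tximport for gene sums, and the deposited values are estimated counts (expected counts) per gene, not normalized. The annotation release and the tool versions are not given in the sources used here. Counts were rounded and fitted with edgeR 4.0.16 in R 4.3.3 (TMM, filter on expression by group, quasi-likelihood test, Benjamini-Hochberg adjustment over all genes). Calls needed an adjusted p below 0.1 with a fold change above 1.25. The F statistics gave the standard errors. The fits were tested on simulated data. Alternatives were DESeq2 1.42.0, other scalings, filters and prior counts, thinned libraries, and leaving out each library. The range of library totals in each group is in the report. The planned test of aorta against kidney in hyperoxia was also fitted. Its p-values are not given, because that contrast includes the differences on which the genes were chosen. The RA libraries also entered the choice, so the p-values in RA are not independent of it. Intervals cover counting error only, and p-values set a difference between group means against the spread between these libraries. No 2 libraries of a group held the same counts (chi-square per degree of freedom at least 17.4).

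The genes, lists and tests were chosen with earlier results of these data known. The 3 genes are named by the rule that chose them. None of the 23918 identifiers is paired with a symbol in the table of rat genes used here (0 matches), so the planned list of other clock genes and the cell type markers were not analysed here. Genes to be named were the 3 activators, members of that list, and the genes most like and most opposite to Arntl, at most 2 identifiers each where no symbol is paired.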

Additional observations from a re-analysis of the deposited data

Results flagged for a closer look

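In 20 groups of 4 libraries, a search was made for a library far from the other 3. The groups covered the 3 genes, library totals and the share of the 10 most abundant genes. There were 2 such libraries, both for levels scaled by TMM, where chance gives about 1.0.

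Arntl in RA aorta replicate 1 had a level of 5.12 CPM, and the rest of its group lay at 2.67 to 3.05 CPM. Without this library the log2 fold change of hyperoxia against RA was 3.47. Scaled by library totals only, RA aorta replicates 1 to 4 held 4.55, 2.23, 3.38 and 3.48 CPM, so replicate 1 stood less apart.

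Clock in RA aorta replicate 2 had a level of 38.7 CPM, and the rest of its group lay at 54.8 to 57.2 CPM. By library totals only, RA aorta replicates 1 to 4 held 48.8, 32.4, 60.9 and 65.3 CPM, a wider spread among the rest. In RA aorta replicate 2 the 10 most abundant genes took 39.6% of the counts, the highest share of the 16 libraries. The part of this share in the Clock value was not tested.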

How the results depend on the processing

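Across 185 alternative values of 14 results, 178 kept their direction and their side of the threshold or moved by less than the spread between replicates, except that Clock in aorta against kidney, never called, changed sign in hyperoxia. The other 7 were correlations with Arntl. With each group's mean removed, r was 0.70 for Npas2 and 0.40 for Clock, and it was 0.90 for Npas2 as Spearman's rho with tissue means removed. In the aorta alone, chosen after seeing the data, r was 0.28 for Npas2 and 0.40 for Clock, and in the kidney alone 0.86 and 0.49. Removing group means takes out the difference between hyperoxia and RA. Leaving out each library kept the log2 fold change of hyperoxia against RA within 3.10 to 3.47 (Arntl, aorta), 2.11 to 2.40 (Npas2, aorta), 0.21 to 0.41 (Clock, aorta), 0.57 to 1.12 (Npas2, kidney) and 0.11 to 0.25 (Clock, kidney). Thinning the libraries to the smallest library total moved none of these by more than the spread. Scaling by library totals shifted the median gene of aorta against kidney by −0.18 in RA and −0.14 in hyperoxia, and Npas2 was still called, with adjusted p from edgeR or DESeq2 between 2.92e-05 and 0.00946 over all alternatives in RA, each library left out included.

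No paired analysis was possible within a tissue because RA and hyperoxia share no library numbers. Between the hyperoxia tissues, deviations from the group means in same-numbered libraries had an r of 0.069, 0.0038 and 0.033 over genes. Libraries with different numbers were not compared in this way, so these values do not show whether the animals were the same. With the library number as a replicate block over 6 libraries, log2 fold changes of aorta against kidney were 1.01 (Arntl), 3.47 (Npas2) and 0.04 (Clock), and 11151 genes were called against 11259 without the block. The counts planned over the list of other clock genes, those of the interaction included, and their alternatives were not run, because no identifier could be given a symbol. The differences between tissues in log2 fold change of the 3 genes were computed in 1 setting.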
